A study of Mus musculus with 6 samples.

Results

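The CC chemokines and fractalkine were examined as 7 genes, Ccl2, Ccl7, Ccl5, Ccl20, Ccl9, Ccl17 and Cx3cl1, of the 29595 genes listed for RNA sequencing of TKPTS cells. They were picked by gene name, with their fold changes between the study's groups already known. Their fold changes, and the counts of those past a threshold, are therefore a description that supports nothing, and no single gene's p-value is printed for the 7. TKPTS cells derive from the mouse kidney proximal tubule. In 3 libraries the cells had been transfected with pcDNA3.1-Hnf3a-Flag, a plasmid for Flag-tagged HNF3α (the Hnf3a group), and in 3 libraries with pcDNA3.1-Flag, the plasmid without Hnf3a, in cells labelled WT (the pcDNA group). RNA was taken 24 hours after transfection, and no further agent is given in the labels. Per-library values are given in the order of replicates 1, 2 and 3. HNF3α, encoded by Foxa1, is a forkhead transcription factor that the study links to kidney fibrosis and inflammation.

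Chemokines are small secreted proteins that bind G protein-coupled receptors and draw leukocytes along a gradient. CC chemokines carry a pair of adjacent cysteines near the start of the mature protein, and fractalkine (Cx3cl1) has other residues between these cysteines and sits on a mucin stalk in the cell membrane until proteases release it. Injured tubule cells are known to secrete CCL2 and CCL5, and many chemokine genes are induced through NF-κB.

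The coding bases around these cysteines set the family apart, and are shown for each gene 5′ to 3′ on the coding strand from GENCODE vM21 (GRCm38), with the cysteine codons in capitals. They lie at chr11:82036500-82036529 (Ccl2, plus strand), chr11:82046532-82046561 (Ccl7, plus), chr11:83529224-83529253 (Ccl5, minus), chr1:83117807-83117836 (Ccl20, plus), chr11:83575908-83575937 (Ccl9, minus), chr8:94811206-94811235 (Ccl17, plus) and chr8:94778045-94778074 (Cx3cl1, plus).
Ccl2: ctcaccTGCTGCtactcattcaccagcaag
Ccl7: tccacaTGCTGCtatgtcaagaaacaaaag
Ccl5: actcccTGCTGCtttgcctacctctccctc
Ccl20: tacgacTGTTGCctctcgtacatacagacg
Ccl9: tcagatTGCTGCctgtcctataactcacgg
Ccl17: cgagagTGCTGCctggattacttcaaaggg
Cx3cl1: acgaaaTGCgaaatcatgTGCgacaagatg
The 6 CC genes have 0 codons between the cysteine codons and Cx3cl1 has 3. The windows lie in exon 3 of 4 in Ccl9 and in exon 2 of 3 in the other genes. Of all 50-base stretches in the chosen transcripts, none of those in Ccl2, Ccl7, Ccl5, Ccl20, Ccl17 or Cx3cl1 occurs in a transcript of another gene, so the family members share no such stretch among themselves. In Ccl9, 59 of 2957 stretches (2.00%) do.

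Library totals ran from 60473818 to 71154667 estimated counts. Foxa1, the gene on the plasmid, was at 334.2, 295.5 and 284.2 FPKM (fragments per kilobase of transcript, scaled to library depth) with Hnf3a, against 9.49, 9.54 and 9.96 FPKM with pcDNA. The epithelial markers Epcam, Cdh1, Krt8, Krt18 and Pax8 had 11256 counts or more in every library. Markers that define the mature proximal tubule were near 0, with 17 to 53 counts for Lrp2, 27 to 58 for Cubn, 4 to 25 for Hnf4a and 0 to 3 for Slc5a2. Of 14 macrophage markers, all 14 were above 12 counts in Hnf3a replicates 2 and 3, but 5 in Hnf3a replicate 1 and 5 to 7 in the pcDNA libraries. Of 9 fibroblast markers, all 9 were above 12 counts in Hnf3a replicates 2 and 3, 4 in Hnf3a replicate 1 and 1 to 3 in the pcDNA libraries. Results that move with these libraries are given below with that split.

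Ccl2 and Ccl5 were among the most abundant transcripts of the cells. By mean FPKM, Ccl2 ranked 8 of all genes in the pcDNA group and 16 in the Hnf3a group, and Ccl5 ranked 12 and 18. Ccl20 ranked 939 and 1522. Ccl7 and Cx3cl1 stood at single-digit to low double-digit FPKM. Ccl9 and Ccl17 were at or near the floor of 12 counts, or about 3 fragments. Ccl9 had 12 or fewer counts in 2 libraries, and Ccl17 in all 6. The other 5 genes were above 12 counts in every library. In FPKM, the order in the pcDNA group was Ccl2, Ccl5, Ccl20, Ccl7, Cx3cl1, Ccl9 and Ccl17. Neighbours in this order did not overlap over the 3 libraries except Ccl9 and Ccl17. The order was the same in the Hnf3a group, where no neighbours overlapped.

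**Figure D1:**
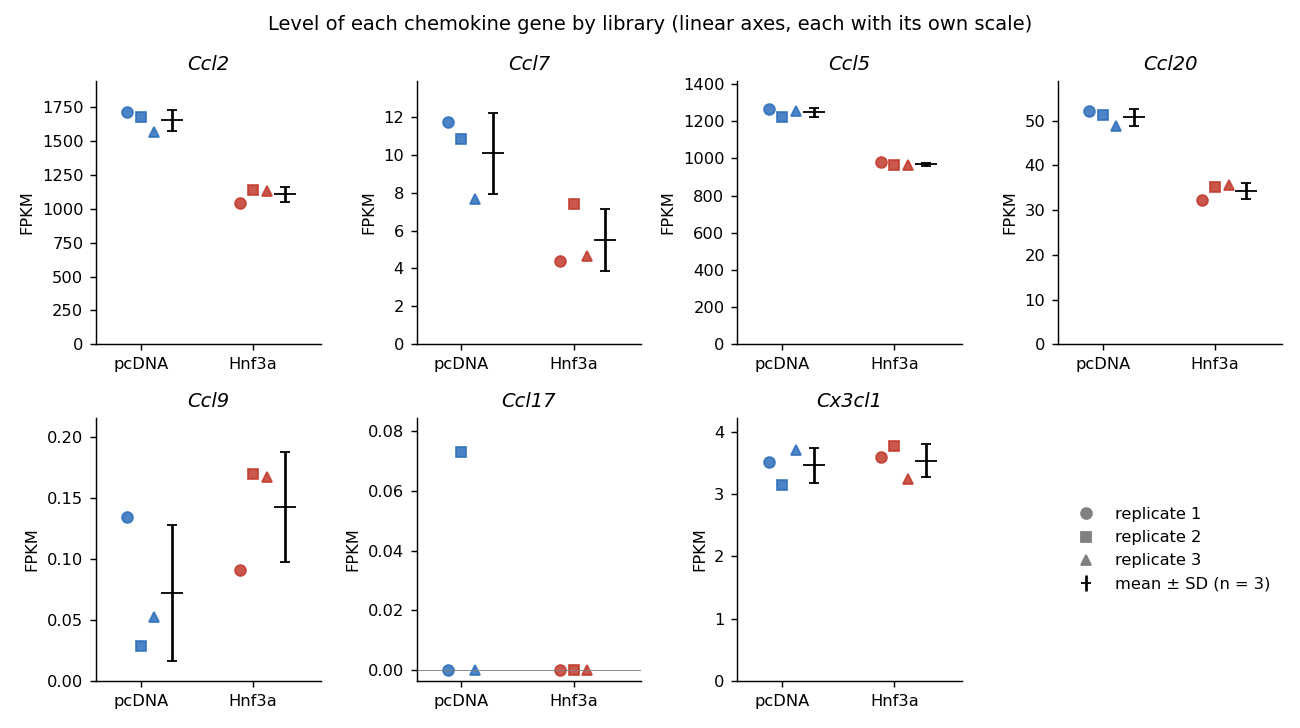
FPKM of each gene in each library, with the pcDNA group in blue and the Hnf3a group in red, marker shape for the replicate number, and the mean with SD (n = 3) in black (omitted for Ccl17, at or under the floor throughout). Ccl2, Ccl7, Ccl5 and Ccl20 are lower in all Hnf3a libraries than in any pcDNA library, Cx3cl1 and Ccl9 overlap, and each panel has its own linear axis.

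Ccl2 (ENSMUSG00000035385; chromosome 11, 82035571 to 82037453, plus strand, 3 exons) encodes MCP-1, the main attractant of monocytes through the receptor CCR2. It was at 1043, 1142 and 1135 FPKM with Hnf3a, against 1716, 1683 and 1567 FPKM with pcDNA. Every Hnf3a library was below every pcDNA library, with a wide gap between the groups. The fitted log2 fold change, Hnf3a over pcDNA, was -0.59 (standard error, SE, 0.040), or 0.665 times the pcDNA level. An annotated antisense gene, Gm17268, overlaps Ccl2, and had at most 1 count in any library. In injured mouse kidneys, the study reported more MCP-1 protein with Hnf3a overexpression and less with tubular knockout of Hnf3a. Those values were of protein in kidney tissue after injury, not of RNA in cultured cells, and the difference in direction was not tested here.

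Ccl7 (ENSMUSG00000035373; chromosome 11, 82045712 to 82047525, plus strand, 3 exons) encodes MCP-3, a further CCR2 ligand, and lies 8258 bases downstream of Ccl2. No listed gene lies wholly in between, but Gm17268, which overlaps Ccl2, extends into this interval, to 82038562. Ccl7 was at 4.41, 7.38 and 4.67 FPKM with Hnf3a, against 11.7, 10.8 and 7.67 FPKM with pcDNA. The groups did not overlap, but Hnf3a replicate 2 and pcDNA replicate 3 nearly met. The coefficient of variation was 30.0% in the Hnf3a group and 21.2% in the pcDNA group, against 4.98% and 4.73% for Ccl2. Its log2 fold change was the largest in size of the 4 genes without overlap, -0.88, but its SE of 0.22 gave a 95% interval from -1.38 to -0.39 that contains the value of Ccl2. When single libraries were left out, it ran from -1.15 without Hnf3a replicate 2 to -0.75.

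Ccl5 (ENSMUSG00000035042; chromosome 11, 83525778 to 83530518, minus strand, 3 exons) encodes RANTES, which attracts T cells and monocytes. It was at 978.8, 967.4 and 962.0 FPKM with Hnf3a, against 1268, 1223 and 1255 FPKM with pcDNA. The replicates lay closer together than for any other of the 7 genes, with a coefficient of variation of 0.881% and 1.87%. The log2 fold change came to -0.37 (SE 0.025), or 0.772 times the pcDNA level.

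Ccl20 (ENSMUSG00000026166; chromosome 1, 83116766 to 83119167, plus strand, 3 exons) encodes MIP-3α, the chemokine ligand of CCR6 on Th17 cells, B cells and dendritic cells. It was at 32.3, 35.2 and 35.5 FPKM with Hnf3a, against 52.2, 51.2 and 48.7 FPKM with pcDNA. Its log2 fold change was -0.57 (SE 0.046), or 0.673 times the pcDNA level, within 1 standard error of the value of Ccl2.

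Of the 6 genes with enough counts to be tested, 3 (Ccl2, Ccl5 and Ccl20) had an edgeR adjusted p under 0.05 and were lower in the Hnf3a group, and 0 were higher, where 2.13% of all 17824 tested genes were lower and 1.04% higher. For 4 of the 6 (with Ccl7) the groups did not overlap and Hnf3a was lower, and for 0 Hnf3a was higher, as was so for 9.81% and 9.12% of all tested genes. The genes were chosen with this contrast known, so nothing is read from either count. The median log2 fold change of the 6 genes was -0.47, beside 0.00085 over all tested genes. In bulk RNA, fewer cells that express a gene and less RNA per expressing cell cannot be told apart.

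Macrophage and fibroblast transcripts varied among the Hnf3a libraries, and their part in the values of the 7 genes was not tested. With Hnf3a replicate 1 alone against the pcDNA group, a comparison of 1 library with 3 added after seeing the data, the log2 fold changes were -0.67 for Ccl2, -1.19 for Ccl7, -0.35 for Ccl5 and -0.65 for Ccl20. Over the 14 macrophage markers the summed level was 71.4 to 85.5 CPM (counts scaled to library depth) in the Hnf3a group and 95.2 to 103.3 CPM in the pcDNA group, most of it from Cd14, Cd68 and Csf1r. Cd14, a receptor subunit for lipopolysaccharide that epithelial cells also express, was lower with Hnf3a (22.7 ± 0.845 against 36.6 ± 2.34 FPKM, SD, n = 3, edgeR adjusted p 2.63e-06). Tyrobp and C1qa, which define myeloid cells and macrophages, had 0 counts in all pcDNA libraries and in Hnf3a replicate 1. Other macrophage markers were detected in those libraries, with 46 counts of Spi1 in Hnf3a replicate 1 and 57, 109 and 106 with pcDNA, 0 of Lyz2 in Hnf3a replicate 1 and 16, 44 and 6 with pcDNA, and 554 to 762 of Csf1r. Of the fibroblast markers, Col1a1 had 33, 2694 and 3099 counts with Hnf3a, against 0, 16 and 5 with pcDNA.

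**Figure D2:**
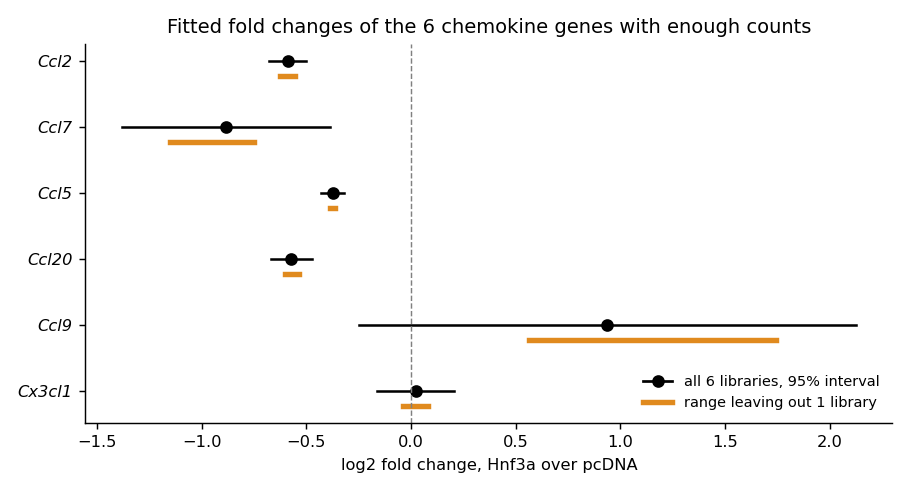
Fitted log2 fold change of Hnf3a over pcDNA for the 6 tested genes (black point) with its 95% interval (black line) and the range over the 6 fits that each leave out 1 library (orange). Ccl2, Ccl7, Ccl5 and Ccl20 lie below 0 with their intervals, Cx3cl1 is centred near 0 at 0.022, and Ccl9 has the widest interval, from -0.25 to 2.12.

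Cx3cl1 (ENSMUSG00000031778; chromosome 8, 94772009 to 94782427, plus strand, 3 exons in its longest coding transcript) differed from these genes in its values. Fractalkine acts through CX3CR1, as an adhesion molecule at the membrane and as an attractant of monocytes and natural killer cells once shed. It was at 3.60, 3.77 and 3.24 FPKM with Hnf3a, against 3.51, 3.15 and 3.71 FPKM with pcDNA. The groups overlapped fully. The log2 fold change was 0.022 (SE 0.086), and its 95% interval ran from -0.16 to 0.21. The 3.54 ± 0.27 and 3.46 ± 0.285 FPKM (SD, n = 3) rested on 911 to 1176 counts per library.

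Ccl9 (ENSMUSG00000019122; chromosome 11, 83572919 to 83578636, minus strand, 4 exons) encodes MIP-1γ, a CCR1 ligand that is abundant in macrophages. It had 21, 41 and 38 counts with Hnf3a, against 29, 7 and 12 counts with pcDNA. The groups overlapped, and the log2 fold change was 0.94 (SE 0.55). Without pcDNA replicate 1 it was 1.74, and with Hnf3a replicate 1 alone against the pcDNA group it was 0.34. The higher counts were in the Hnf3a libraries with all 14 macrophage markers above 12 counts, although pcDNA replicate 1, with 6 of 14, had 29 counts. The part of the macrophage transcripts in the counts of Ccl9 was not tested.

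Ccl17 (ENSMUSG00000031780; chromosome 8, 94810453 to 94812036, plus strand, 3 exons) encodes TARC, a CCR4 ligand made mainly by dendritic cells. It had 3 counts in pcDNA replicate 2 and 0 counts in the other 5 libraries. It was not detectable above the floor of 12 counts (0.169 to 0.198 CPM depending on the library) in either group, and no fold change is given.

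The levels were also compared within libraries, where a ratio of FPKM values does not depend on how libraries are scaled against each other. The ratio of Ccl2 to Ccl20 was 32.3, 32.5 and 32.0 with Hnf3a, against 32.9, 32.8 and 32.2 with pcDNA. The groups overlapped and all 6 values lay within 32.0 to 32.9. Both genes were lower in the Hnf3a group by similar log2 fold changes (-0.59 and -0.57), from which a similar ratio in both groups follows. The ratio of Ccl2 to Ccl5 was 1.07, 1.18 and 1.18 with Hnf3a, against 1.35, 1.38 and 1.25 with pcDNA. These values did not overlap between groups and were smaller with Hnf3a. The ratio of Ccl2 to Ccl7 ran from 154.6 to 243.1 in the Hnf3a group and from 146.2 to 204.2 in the pcDNA group, with overlap. These ratios, and the shares given next, rest on genes chosen with this contrast known and are a description.

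Over the 14 CC chemokine genes analysed, Ccl2 and Ccl5 made up 97.6% to 98.0% of the summed FPKM in every library. The sum was 2064 to 2158 FPKM in the Hnf3a group and 2885 to 3058 FPKM in the pcDNA group, or 0.742% to 0.763% and 1.02% to 1.08% of the FPKM of all genes. Within the sum, Ccl5 took 44.8% to 47.4% in the Hnf3a group and 41.1% to 43.5% in the pcDNA group. The share of Ccl5 was higher, and the sum lower, in every Hnf3a library than in any pcDNA library.

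**Figure D3:**
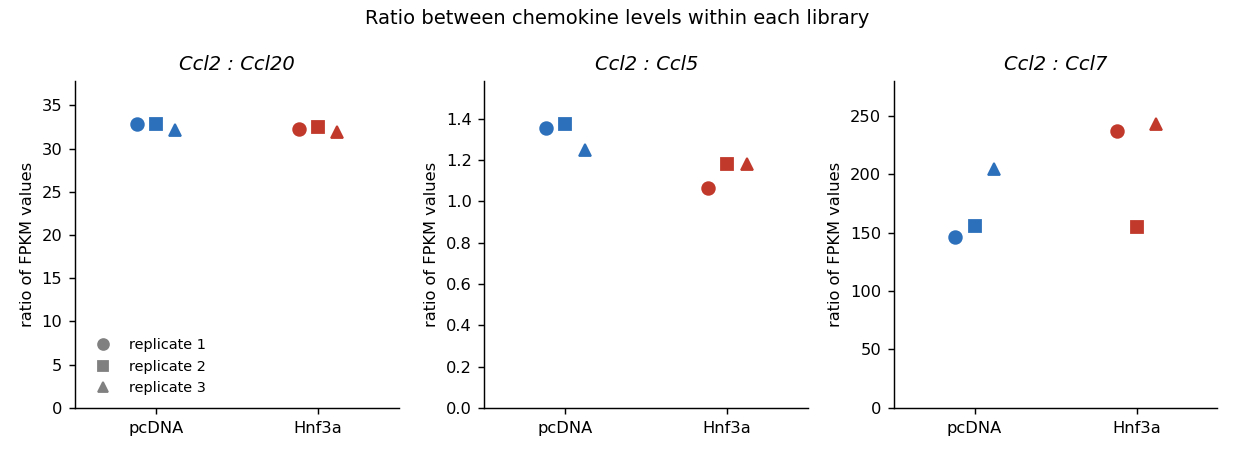
Ratio of the FPKM of Ccl2 to that of Ccl20, Ccl5 and Ccl7 in each library (blue, pcDNA; red, Hnf3a; marker shape, replicate number), on linear axes from 0. The ratio to Ccl20 stays between 32.0 and 32.9 in all 6 libraries, the ratio to Ccl5 separates the groups, and the ratio to Ccl7 overlaps.

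Likeness of pattern was measured as the root mean square difference of log2 CPM, centred for each gene, over the 6 libraries, among genes with a mean of at least 1 FPKM. The gene nearest to Ccl2 of 11922 compared was Ccl20, at 0.015, followed by Edn1 (endothelin-1, a vasoconstrictor) at 0.023 and Slfn4 at 0.040. For Ccl20 the nearest were Ccl2, Slfn4 at 0.034 and Edn1 at 0.036. Ccl5 was nearest to Smap2, Gsto1 and Nadk, at 0.015 to 0.021, and Ccl2 came at rank 584 from Ccl5, at 0.126. Counted from Ccl2, the same distance put Ccl5 at rank 75, so a rank depends on the gene it starts from. Ccl7 had no close neighbour, with Gsap, Trf and Il1f6 at 0.19 to 0.23 and Ccl2 at rank 38, at 0.30. For Cx3cl1 they were Samd14, Bag5 and Kdm7a, at 0.012 to 0.030. For Ccl9, with few counts, they were Rpl17-ps10, Hnrnpa3 and Gm5854, at 0.42 to 0.47. The distances mix the difference between groups with the scatter within them, and are a description.

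Promoter sequences of 300 bases, from 250 before to 50 after the start site, were taken from RefSeq (GRCm38.p6), where 4 of the 7 genes matched (Ccl20, Cx3cl1, Ccl9 and Ccl17). The promoters of Ccl2, Ccl7 and Ccl5 were not analysed here. The 4 promoters were searched on both strands for the NF-κB motif κB, for the forkhead motif TGTTTAC, for its variant form TATTTAC and for the AP-1 motif TGANTCA, and on the printed strand for the TATA box TATAAA. The promoters of Ccl20, which was lower in the Hnf3a group, and of Cx3cl1, which overlapped between groups, are shown with matches in capitals. The first lies at chr1:83116516-83116815 and the second at chr8:94771930-94772229, both on the plus strand.
Ccl20: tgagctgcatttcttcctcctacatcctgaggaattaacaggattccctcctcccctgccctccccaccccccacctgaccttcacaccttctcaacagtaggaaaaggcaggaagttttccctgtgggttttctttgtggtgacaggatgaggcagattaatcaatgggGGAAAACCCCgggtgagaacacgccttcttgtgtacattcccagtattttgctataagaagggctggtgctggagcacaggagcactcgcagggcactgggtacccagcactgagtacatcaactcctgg
Cx3cl1: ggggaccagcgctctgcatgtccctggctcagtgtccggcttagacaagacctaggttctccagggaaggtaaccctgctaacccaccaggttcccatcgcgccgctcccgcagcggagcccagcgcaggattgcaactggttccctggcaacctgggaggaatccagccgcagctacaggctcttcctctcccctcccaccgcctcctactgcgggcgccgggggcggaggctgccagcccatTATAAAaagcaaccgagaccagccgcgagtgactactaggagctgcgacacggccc
Ccl20 held 1 κB match, GGAAAACCCC as printed and read on the reverse strand, from 80 to 71 bases before the start site. Cx3cl1 held TATAAA, ending 1 base before the RefSeq start site, and no other match. The gene start given above for Cx3cl1, 94772009, lies inside this window, before the RefSeq start site. Less sequence before the listed gene start was therefore searched for Cx3cl1 than for Ccl20, Ccl9 and Ccl17. Ccl9 held κB, the variant forkhead motif, the AP-1 motif and the TATA box once each, and Ccl17 held none. Of 32851 promoters of this length, 4.51% held κB, 3.65% the forkhead motif, 3.04% its variant, 7.81% the AP-1 motif and 8.32% the TATA box. A match is a run of letters in this window and was not tested for binding.

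The 7 genes lie at 4 places, as Ccl2 with Ccl7, Ccl5 with Ccl9, Cx3cl1 with Ccl17, and Ccl20. Ccl5 and Ccl9 are 42400 bases apart and Cx3cl1 and Ccl17 are 28025 bases apart, with no other listed gene in between. In both of these pairs one gene, Ccl5 or Cx3cl1, was above the floor in every library and its partner was near it. Of 61 other genes within 250 kb of any of the 7, 32 were tested, 3 were lower (Heatr9, Dok4 and Nlrc5) and 1 was higher (Adgrg1) by edgeR adjusted p, 4 of 32 against 3.17% of all tested genes. Heatr9 lies 3602 bases downstream of Ccl5, on the same strand. It had 382, 451 and 441 counts with Hnf3a, against 523, 649 and 526 with pcDNA (log2 fold change -0.50, SE 0.11, edgeR adjusted p 0.0268). Beside Ccl2, the non-coding genes Gm31522 and Gm11419 had log2 fold changes of -0.82 and -0.89 with no overlap between groups, but did not pass the threshold (edgeR adjusted p 0.106 and 0.15). The use of strand in counting is not given in the sources used here.

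**Figure D4:**
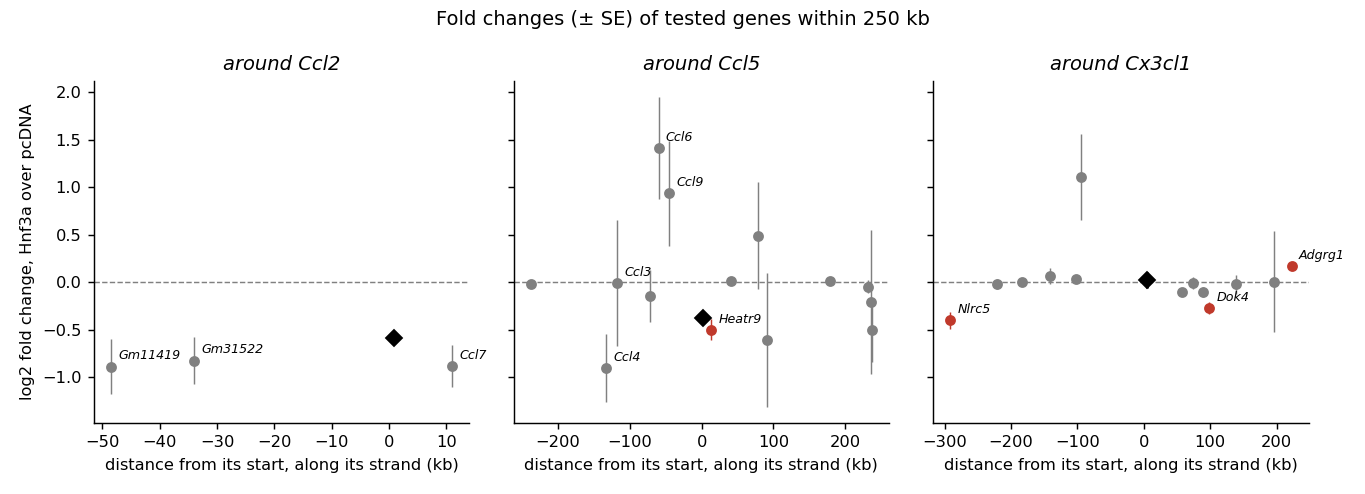
Log2 fold change (± SE) of tested genes whose span lies within 250 kb of Ccl2, Ccl5 or Cx3cl1 (black diamonds), against the distance of each gene's middle from the start of that chemokine gene along its strand. Red points had an edgeR adjusted p under 0.05, namely Heatr9 beside Ccl5, and Nlrc5, Dok4 and Adgrg1 around Cx3cl1.

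The other CC and XC ligands were set beside these genes. Of 19 listed, 9 were analysed and 6 tested, and 0 passed the threshold in edgeR or in DESeq2, with 2 at an unadjusted edgeR p under 0.05 and a median log2 fold change of 0.0049. Ccl4, which encodes MIP-1β and lies in the gene cluster of Ccl5, had 69, 34 and 82 counts with Hnf3a, against 146, 108 and 73 with pcDNA, with overlap. Ccl3 (MIP-1α) had 53, 72 and 177 counts against 158, 81 and 44, in the same order of libraries, and Ccl6, a macrophage chemokine next to Ccl9, had 14, 48 and 52 against 8, 19 and 13. For Ccl6 the groups overlapped, and its log2 fold change of 1.42 did not pass the threshold (edgeR adjusted p 0.245). Its highest counts were in Hnf3a replicates 2 and 3, which had all macrophage markers above 12 counts, and the part of those transcripts was not tested. Ccl25, Ccl27a and Ccl28, which are known from epithelia, had log2 fold changes of 0.017, 0.17 and -0.26, and none passed the threshold (edgeR adjusted p 0.98, 0.802 and 0.416). Ccl8, Ccl11 and Xcl1 did not exceed 7 counts in any library.

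The receptors analysed for the 7 chemokines were at or near the floor. Ccr1, a receptor for CCL5, CCL7 and CCL9, had 0, 24 and 21 counts with Hnf3a, against 0, 4 and 0 with pcDNA. The counts above 12 were in the 2 libraries with all macrophage markers above the floor, and the part of those transcripts was not tested. Cx3cr1, the fractalkine receptor, had 0 to 6 counts per library, and Ccr4, the receptor for CCL17, had 4 counts in Hnf3a replicate 1 and 0 elsewhere. Ccr2, Ccr3 and Ccr6 were not analysed here.

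Of 16 receptors in the list, 10 were analysed and 3 tested, and 1 passed the threshold. This was Ccrl2, an atypical receptor that binds chemerin and does not signal like the classical ones. It had 1236, 1444 and 1309 counts with Hnf3a, against 2306, 2399 and 2177 with pcDNA, with every Hnf3a library below every pcDNA library. Its level was 6.79 ± 0.24 FPKM against 12.4 ± 0.833 FPKM (SD, n = 3), with log2 fold change -0.87 (SE 0.063, edgeR adjusted p 2.22e-06). The median log2 fold change of the 3 tested receptors was -0.81, which is the value of Ccr10 (SE 0.59, edgeR adjusted p 0.633). Ccr10 had 10, 10 and 18 counts with Hnf3a, against 11, 16 and 37 with pcDNA, with overlap. Ackr4 had a log2 fold change of 0.50 (SE 1.01, edgeR adjusted p 0.907), also with overlap.

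The list of genes for shedding, cleavage and presentation at the cell surface had 15 members, all tested, of which 1 was lower and 0 higher, with a median log2 fold change of 0.063. The lower gene was Rhbdf1, encoding an inactive rhomboid protein that helps ADAM17 mature, at 21.3 ± 0.481 FPKM against 24.4 ± 0.272 FPKM (SD, n = 3). Its log2 fold change was -0.21 (edgeR adjusted p 0.00272). Adam10 and Adam17, the proteases that release fractalkine, had log2 fold changes of 0.078 and 0.12 (edgeR adjusted p 0.41 and 0.133). Dpp4, which trims the first residues of CCL5, had one of 0.21 (edgeR adjusted p 0.26), and the proteoglycan genes Sdc1 and Sdc4 had 0.063 and 0.025. Ctss, encoding cathepsin S, had 74, 334 and 358 counts against 89, 63 and 61. The groups overlapped, and its log2 fold change of 1.74 did not pass the threshold (edgeR adjusted p 0.32). It passed in 1 of 14 other settings, without Hnf3a replicate 1 (2.17, edgeR adjusted p 0.000103). Both high libraries are those with all 14 macrophage markers above 12 counts, and the part of those transcripts was not tested.

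The last list held genes that induce chemokine transcription or limit chemokine mRNA. Of its 25 genes, all tested, 9 were lower and 0 were higher, with a median log2 fold change of -0.12. Over all tested genes 2.13% were lower and 1.04% higher. The list was chosen with earlier results of these data known, so nothing is read from this count. The largest fall among the 9 was that of Zc3h12a, encoding Regnase-1, an RNase that degrades inflammatory mRNAs and is itself induced by NF-κB. It was at 12.2, 12.2 and 11.1 FPKM with Hnf3a, against 22.02, 20.3 and 21.8 FPKM with pcDNA (log2 fold change -0.86, SE 0.051, edgeR adjusted p 5.18e-07). Il1a, encoding the cytokine IL-1α, was at 9.45 ± 0.197 FPKM against 14.7 ± 0.719 FPKM (SD, n = 3), and its log2 fold change was -0.64.

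Nfkbiz, encoding the NF-κB cofactor IκBζ, was at 22.5 ± 0.101 FPKM against 31.4 ± 0.104 FPKM (SD, n = 3), and its log2 fold change was -0.49. Nfkbia, encoding the inhibitor IκBα, fell by 0.38 on the log2 scale. Tnfaip3, encoding the inhibitor A20, fell by 0.36, and Nfkb1, encoding the p105 and p50 subunits, fell by 0.32. The edgeR adjusted p of Il1a, Nfkbiz, Nfkbia, Tnfaip3 and Nfkb1 was at most 0.000327, with no overlap between groups. The other 3 lower genes, named after their values were seen, were Nfkbie, Irf1 and Nfkb2, with log2 fold changes of -0.24, -0.16 and -0.14. Over 15 other settings they lost the call in 6, 5 and 8. Rela, encoding the p65 subunit, had a log2 fold change of -0.027 (edgeR adjusted p 0.903), and that of its kinases Ikbkb and Chuk was -0.099 and -0.0045. Tnf had 111, 41 and 115 counts against 131, 194 and 114, and Il1b 32, 58 and 39 against 29, 42 and 47, and neither passed the threshold (edgeR adjusted p 0.411 and 0.985). Relb and Rel, which encode further NF-κB subunits, had log2 fold changes of -0.19 and -0.12 and did not pass (edgeR adjusted p 0.0875 and 0.631). Both activators and inhibitors of the pathway are among the 9, and the activity of NF-κB was not tested.

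**Figure D5:**
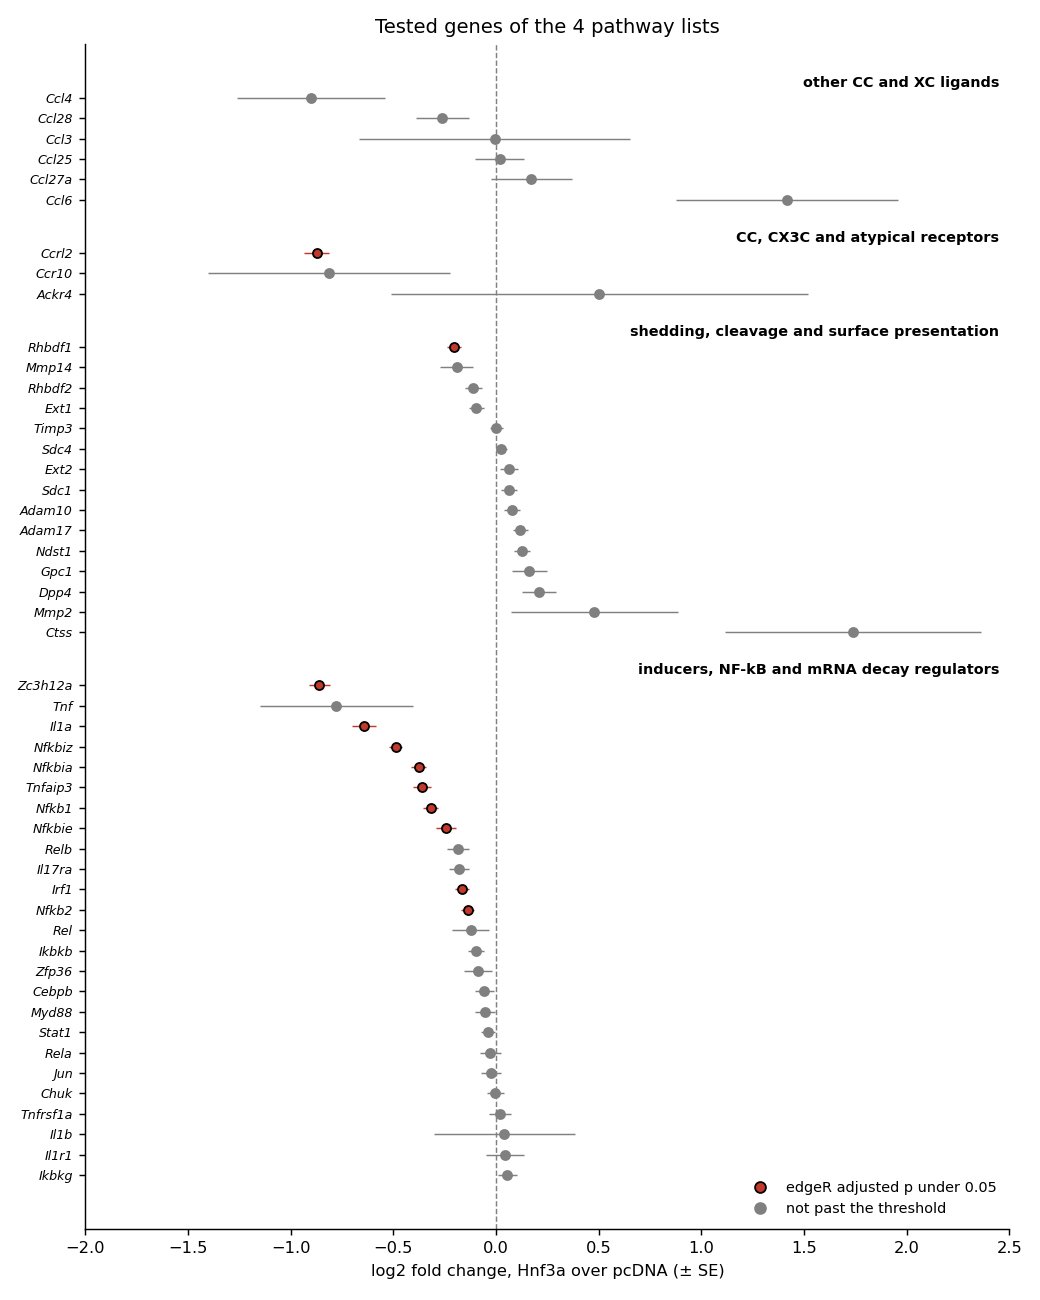
Log2 fold change (± SE) of every tested gene in the 4 lists of other ligands, receptors, shedding and presentation genes, and inducers and regulators, ordered within each list. Red points passed an edgeR adjusted p of 0.05 and all of these lie below 0 (0 ligands, 1 receptor, 1 shedding gene and 9 inducers or regulators).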

How the data were processed

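Polyadenylated RNA of TKPTS cells was sequenced as 6 paired-end libraries whose second strand was U-labelled and degraded. Whether counting used strand is not given in the sources used here. The submitters' processing notes name cutadapt 1.9, HISAT2 2.0.4, UMI-tools, StringTie 1.3.4d, DESeq2, edgeR and mm10, with no roles. The authors deposited whole-number estimated counts and FPKM per gene and library. An excess of genes at 4 counts in each library (1148 to 1203, against 661 to 694 at 3) set 1 fragment at about 4 counts, and the floor at 12. Floors cover counting error only.

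Genes were filtered with filterByExpr, scaled by TMM and tested two-sided with edgeR 4.0.16 (glmQLFit, robust) in R 4.3.3, with Benjamini-Hochberg adjustment over 17824 genes. Standard errors are the log2 fold change over the square root of F. The table's coordinates were identical to GENCODE vM21 for 26766 of 29514 shared genes. The alternatives were 2 other filters, 2 scalings, DESeq2 1.42.0, limma 3.58.1 on log2(FPKM + 0.1) and log2(FPKM + 1), counts divided by 4, a replicate block and leaving out each library. The procedure was tested on simulated data.

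The members and lists were chosen with earlier results of these data known. Named genes were the 7 members and Foxa1, up to 6 called genes per list by smallest p, receptors of the members, other ligands above 12 counts, adjacent genes and the 3 most alike in pattern. Further genes of the lists that were not called, such as Adam10, Ctss, Rela and Tnf, were named outside this rule, with results of these data known. The labels do not say whether replicates were separate cultures, so p-values measure the spread between these libraries, which may be technical. With 3 against 3 libraries, an exact permutation test of 1 gene cannot go below 0.1. One gene of the receptor list is not reported here. Marker lists of T and NK cells and endothelium were also checked. Of these, Lck was the only T and NK cell gene above 12 counts. Endothelial genes summed to 3.63 to 4.12 CPM in the Hnf3a group and 4.96 to 5.99 CPM in the pcDNA group.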

Additional observations from a re-analysis of the deposited data

How the results depend on the processing

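Since the members were chosen with this contrast known, their values over the 15 settings tried describe the spread of refits of the same libraries and are no support. The log2 fold changes of Ccl2, Ccl5 and Ccl20, called in all 15, ran from -0.63 to -0.55, -0.39 to -0.36 and -0.60 to -0.53. Ccl7 ran from -1.15 to -0.75 and was called in 4, the DESeq2 Wald test, the replicate block, and without Hnf3a replicate 2 or pcDNA replicate 3. Cx3cl1 ran from -0.040 to 0.083. Ccl9 was tested in 13, from 0.093 to 1.74, and passed in none. The median log2 fold change of the members was -0.57 with all genes of at least 1 count (7 genes), with at least 1 FPKM in at least 3 libraries (5 genes) and with counts divided by 4 (5 genes), where the genes tested differ. Over all genes, 565 passed as reported, 236 and 231 in the limma fits on log2(FPKM + 0.1) and log2(FPKM + 1), 263 to 643 without 1 library (263, 286, 267 and 349 without Hnf3a replicate 2 or pcDNA replicate 1, 2 or 3), and 322 with only Hnf3a replicate 1 against pcDNA, a setting chosen after seeing the data. The cause was not tested. The DESeq2 Wald test called 819. Receptors past the threshold numbered 1 in each setting, and shedding genes 1 to 3 without 1 library (Rhbdf2, lower, and Ctss, higher, were added without Hnf3a replicate 1). The regulators numbered 6 to 10, all lower.

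The replicate numbers did not pair the libraries, with correlations of same-numbered deviations of -0.041, -0.010 and 0.01. With the replicate block 463 genes passed, and 4 members.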

Other observations

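Hnf3a replicate 1 had the highest Foxa1 level of the 6 libraries, at 334.2 FPKM. It also had the lowest Ccl2, Ccl7 and Ccl20 levels of the 6, at 1043, 4.41 and 32.3 FPKM, and the lowest Ccl9 level of its group, at 0.0909 FPKM. Its Ccl5 level was the highest of its group, at 978.8 FPKM. The same library had the fewest macrophage and fibroblast transcripts of its group. With 3 libraries in the group, no relation was tested.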
